A study of Mus musculus with 10 samples.

Results

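The Hox cluster genes encode the homeodomain transcription factors that lie in 4 clusters of the mouse genome, and here they were followed across the peak lists of macrophages. Members were the protein-coding genes whose symbols start with Hoxa, Hoxb, Hoxc or Hoxd followed by a number. There were 39 of them among 21887 protein-coding genes of the RefSeq table of GRCm38.p6, the assembly called mm10. HOXA on chromosome 6 held 11 genes over 105.5 kb, HOXB on chromosome 11 held 10 over 173.9 kb, HOXC on chromosome 15 held 9 over 115.7 kb and HOXD on chromosome 2 held 9 over 96.9 kb.

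Chromatin was profiled by CUT&Tag, in which an antibody guides a transposase that cuts and tags the DNA around its target. The nucleolar protein NPM1, which carries histones, was profiled in cardiac macrophages of wild-type (WT) mice on day 3 after myocardial infarction and on day 3 after a sham operation. Its second setting was macrophages grown from WT bone marrow with 50 ng/ml of the growth factor M-CSF for 7 days, either after 12 hours with interleukin-4 (IL-4) at 20 ng/ml or untreated (0 hours). H3K4me3, the trimethylated lysine 4 of histone H3 that marks active promoters, was profiled on day 3 after infarction in cardiac macrophages of Npm1 conditional knockout (KO) mice and of WT mice. No source used here gives the driver of the conditional deletion or the cells it acts in. The other 4 libraries of the 10 in the series were not analysed here. Each group held 1 library, so no value has a replicate error, no test was possible, and a difference between libraries is a difference between these libraries.

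The 6 lists held between 52977 and 104514 peaks. The lowest −log10 p of each list was near 2.0, and between 5.01% and 27.8% of a list's peaks had q above 0.05. The genome-wide background at peak summits, which scales with depth, was 3.03 reads in the infarct and 1.29 in the sham library, 4.18 in the IL-4 and 1.31 in the untreated library, and 2.49 in the KO and 2.92 in the WT H3K4me3 library. A peak was counted at a gene end where it overlapped, by 1 bp or more, the 1 kb on either side of either annotated end of the gene. Fold enrichment is the summit pileup over the local background, each with 1 added, and fold and −log10 q are the authors' own values for each peak. All 12 macrophage markers checked, among them Csf1r, Adgre1 and Spi1, had a gene-end peak in the infarct and IL-4 NPM1 lists and in the KO H3K4me3 list, and 10 had one in the WT H3K4me3 list. The sham NPM1 list held 1 of the 12 markers and the untreated NPM1 list none, so the labelled cell type could not be checked in those lists. Npm1 itself had an H3K4me3 peak of fold 7.97 in KO and 7.60 in WT macrophages. A promoter peak does not test a deletion.

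Hox genes are read in their order along the chromosome during embryonic patterning, and their products bind DNA together with PBX and MEIS proteins. In blood, HOXA and HOXB genes are active in stem cells and early progenitors and are switched off as cells mature, whereas HOXC and HOXD genes are mainly known from the trunk, skin and limbs. MLL (Kmt2a) complexes place H3K4 methylation at active Hox genes and Polycomb complexes hold silent ones. High HOXA and HOXB expression is a hallmark of human acute myeloid leukaemia with mutated NPM1.

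Most bases of the 4 clusters carried no peak in any list, and the peaks of highest pileup lay in HOXA, Hoxa4 among them, and from Hoxb3 to Hoxb4 in HOXB. Peaks covered 2.0% of the clusters' bases for infarct NPM1 and 0.352% for sham NPM1, against 1.13% and 0.607% of the assembled chromosomes in the same lists. For NPM1 in bone marrow-derived macrophages the cluster shares were 1.43% with IL-4 and 0.129% untreated, against genome shares of 1.54% and 0.735%. For H3K4me3 they were 5.09% in KO and 1.44% in WT macrophages, against genome shares of 1.33% and 1.04%. The cluster share was thus 3.82 times the genome share for KO H3K4me3, 1.39 times for WT H3K4me3, 1.78 times for infarct NPM1 and below the genome share in the other 3 lists. The clusters pack 39 genes into 492.1 kb, so a share of bases does not give a share of genes. By gene, Hox genes were marked less often than all genes in those lists. The shares were 51.3% against 61.8% in KO, 20.5% against 57.1% in WT and 46.2% against 50.6% in infarct. The clusters held 49 KO and 18 WT H3K4me3 peaks, 29 infarct and 8 sham NPM1 peaks, and 22 IL-4 and 3 untreated NPM1 peaks.

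**Figure D1:**
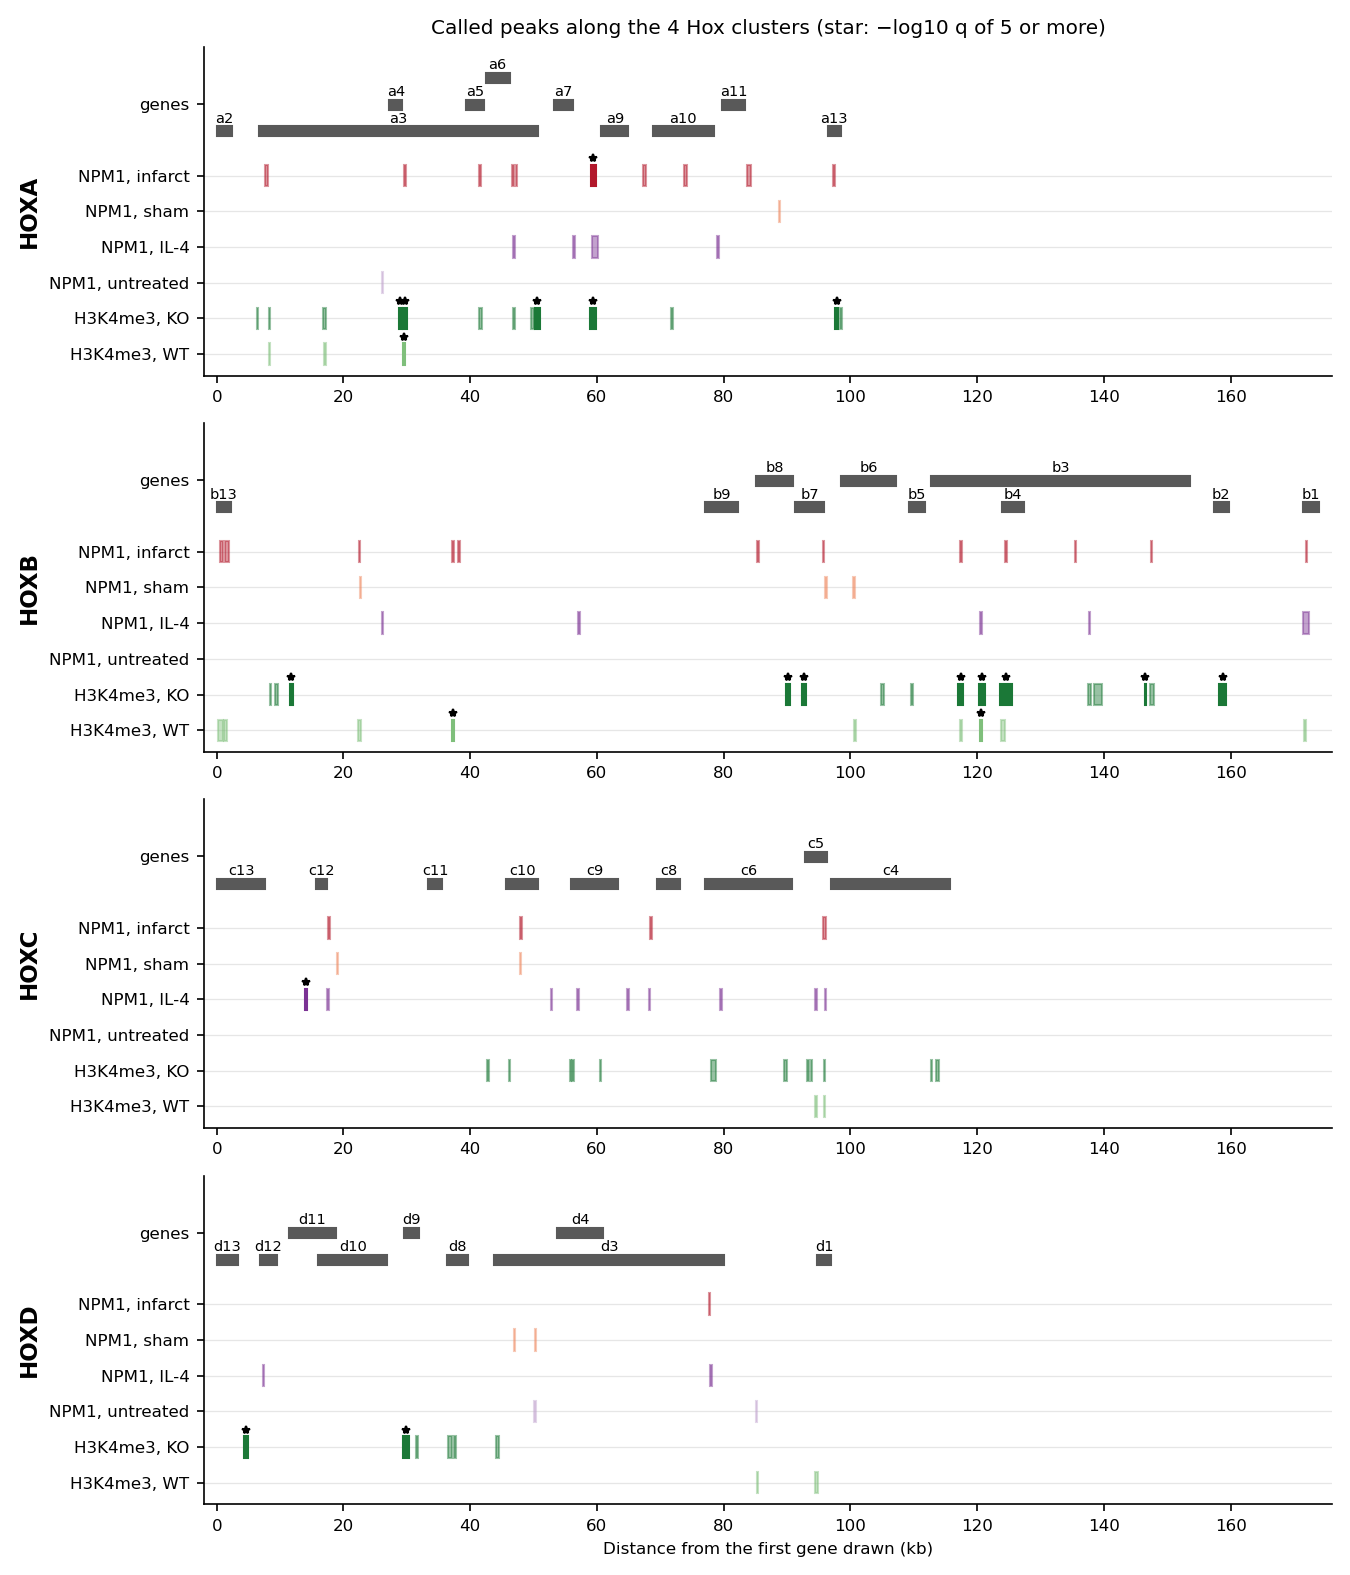
Peaks called along HOXA, HOXB, HOXC and HOXD in each of the 6 libraries, against the distance in kb from the first gene drawn, with 1 HOXA gene and its peaks left out. Grey bars are genes with the Hox prefix dropped, coloured boxes are peaks, and a star and full colour mark −log10 q of 5 or more. The KO H3K4me3 row shows 46 peaks and the WT row 16, and the sham and untreated NPM1 rows hold 8 and 3.

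H3K4me3 profiles of KO and WT macrophages were compared to ask whether the mark differs where Npm1 is deleted. A gene-end peak was called at 20 of 39 Hox genes in KO macrophages, against 61.8% of all protein-coding genes, and at 8 of 39 in WT macrophages, against 57.1% of all genes. The peaks at those genes were 29 distinct ones in KO and 8 in WT. Some genes had 2 or 3 gene-end peaks, such as Hoxa3 and Hoxc5 with 3 each in KO, and some neighbours shared a peak. Hox genes marked in KO and not in WT numbered 15, beside 8.37% of all genes. Those marked in WT and not in KO numbered 3, beside 3.73% of all genes, and 5 were marked in both, beside 53.4% of all genes. Of the 31 Hox genes without a WT peak, 15 had one in KO (48.4%), whereas 19.5% of the 9386 such genes in the genome did. With −log10 q of 5 or more, 10 Hox genes were marked in KO (57.0% of all genes) and 1 in WT (42.8% of all genes). At that threshold 9 were marked in KO only, where 14.5% of all genes were, and none in WT only, where 0.288% were.

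The 2 H3K4me3 libraries also differed over the whole genome, in the same direction. The median fold of the strongest gene-end peak over all marked genes was 7.77 in KO and 5.0 in WT, although the KO background was the lower. Over the 11685 genes marked in both, the summit pileup divided by the library's genome-wide background had a median of 73.5 in KO and 10.6 in WT. The KO to WT ratio of that quantity had a median of 6.56 and an interquartile range of 5.44 to 7.68, and it was above 1 at 99% of these genes. Fibroblast markers moved with the Hox genes, with a gene-end peak at 10 of 14 in KO and 2 of 14 in WT. With −log10 q of 5 or more the fibroblast counts were 6 in KO and none in WT. Folds in KO were 9.74 at Wt1, 6.88 at Postn and 5.88 at Pdgfrb. Wt1 also had NPM1 folds of 9.91 in infarct and 11.7 in IL-4-treated bone marrow-derived macrophages. No other fibroblast marker reached a −log10 q of 5 in those NPM1 lists. The fibroblast markers Dcn, Lum, Pdgfra and Thy1 were unmarked in both. No cardiomyocyte marker of 10 was marked in KO, beside 2 in WT, and 5 of 10 endothelial markers were marked in each. Neutrophil markers were marked at 4 of 8 in KO and 3 of 8 in WT, and lymphocyte markers at 5 of 10 in KO and 3 of 10 in WT. In bulk cells, a mark on few cells and a weaker mark on all cells cannot be told apart. The part of library-wide enrichment and of other cell types in the Hox counts was not tested.

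Hoxa4, an axial patterning gene of HOXA, had the H3K4me3 gene-end peak of highest fold and −log10 q among Hox genes in both libraries. Its KO peak lay at chr6:52191809-52192458, just beyond the gene's higher-coordinate end, with 149 reads at the summit over a local background of 9.66, a fold of 14.1 and a −log10 q of 115. The WT peak began at the same base, at chr6:52191809-52192181, with 20 reads over 3.08, a fold of 5.15 and a −log10 q of 7.62. The KO fold was at or above that of 96.8% of all genes with a KO gene-end peak, and the WT fold at or above that of 53.5% of genes with a WT peak. Divided by the genome-wide backgrounds, the Hoxa4 summit was 59.8 in KO and 6.85 in WT, a ratio of 8.74 that was at or above that of 89.5% of the genes marked in both. Hoxa4 was the Hox gene with a −log10 q of 5 or more in both libraries, and no other had it in WT.

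Hoxa3, a gene of thymus and parathyroid formation, was marked in KO only, by 36 reads, a fold of 5.24 and a −log10 q of 14.4 at chr6:52212633-52213403. Hoxa9, the HOXA gene best known for progenitor self-renewal, was marked in KO only, by 43 reads, a fold of 7.83 and a −log10 q of 24.6. The Hoxa9 peak at chr6:52221347-52222205 lay outside the gene, beyond its 3′ end, on the side towards Hoxa7. At its known start site Hoxa9 was marked in no list. Hoxa13, a limb and urogenital gene at the other edge of the cluster, was marked in KO only, by 24 reads, a fold of 6.28 and a −log10 q of 12.2. Hoxa5 and Hoxa6 shared a weaker KO peak of fold 3.40 and 12 reads. Of the 11 HOXA genes, 7 were marked in KO and 2 in WT.

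In HOXB the mark was centred on Hoxb4, a gene that expands blood stem cells, and on the interior of the long Hoxb3 gene model around it. The Hoxb4 peak was 1934 bp wide in KO, at chr11:96317911-96319844, with 120 reads over a local background of 26.4, a fold of 4.42 and a −log10 q of 37.6. In WT it was 702 bp wide, with 21 reads over 4.98, a fold of 3.68 and a −log10 q of 4.92. The local KO background there was well above the genome-wide 2.49 reads, so the fold of 4.42 is small beside the read number. Relative to the genome-wide backgrounds the Hoxb4 summit was 48.2 in KO and 7.19 in WT, a ratio of 6.70 that lay at the middle of all genes, with 53.5% at or below it.

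Inside Hoxb3 and away from its annotated ends, a KO peak at chr11:96314686-96315508 had 141 reads and a −log10 q of 46.6, and the WT peak within it had 22 reads and a −log10 q of 5.02. A second KO peak at chr11:96311291-96312134 had 89 reads and a −log10 q of 34.0, and the WT peak within it had 18 reads and a −log10 q of 4.60. Hoxb3 itself was counted as unmarked in all 6 lists because its outermost ends carried no peak. Counts at gene ends leave out such internal peaks.

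Hoxb2, which patterns the hindbrain, was marked in KO only, with 19 reads, a fold of 5.59 and a −log10 q of 8.95. Hoxb8, a gene whose forced expression keeps mouse myeloid progenitors dividing, shared with Hoxb7 a KO peak of 17 reads, fold 4.11 and −log10 q 5.49. That peak lay near the 3′ end of Hoxb8, whose known start site was marked in no list. Hoxb5 had a KO peak of 13 reads and fold 3.08. Hoxb13, a prostate and tail gene, and Hoxb1, a hindbrain gene, were marked in WT only, with 14 reads and fold 3.69 for Hoxb13 and 12 reads and fold 3.32 for Hoxb1. Of the 10 HOXB genes, 5 were marked in KO and 3 in WT.

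HOXC genes, which pattern the trunk and the skin, were marked at 5 of 9 in KO and 2 of 9 in WT, and none reached a −log10 q of 5 in either list. Hoxc6 had 13 reads and fold 4.01 in KO, Hoxc9 13 reads and fold 3.89, and Hoxc10 9 reads and fold 2.87, with no WT peak at any of the 3. Hoxc5 had 11 reads in KO and 11 in WT, and Hoxc4 had 9 reads in KO and 11 in WT. Relative to background these gave KO to WT ratios of 1.17 for Hoxc5 and 0.959 for Hoxc4, at or above those of 1.84% and 0.873% of the genes marked in both. The KO peak behind the Hoxc5 ratio does not overlap the WT peak, which is also the one counted at Hoxc4. The overlap between genotypes there is 1 site, with 9 reads in KO and 11 in WT. At Hoxa4 and Hoxb4 the KO signal was the higher by a factor near the genome median or above it.

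HOXD genes, which pattern the limbs and the trunk, were marked at 3 of 9 in KO and 1 of 9 in WT. Hoxd9 had a 992 bp peak in KO only, with 19 reads, a fold of 5.73 and a −log10 q of 9.21. Hoxd8 had 13 reads and fold 4.01 in KO, and Hoxd3 10 reads and fold 3.15. Hoxd1, a gene of sensory neurons, was marked in WT only, with 10 reads, a fold of 2.81 and a −log10 q of 1.31. The strongest HOXD peak lay outside the genes, between Hoxd13 and Hoxd12, at chr2:74672605-74673217, with 23 reads, a fold of 6.88 and a −log10 q of 13.0 in KO.

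**Figure D2:**
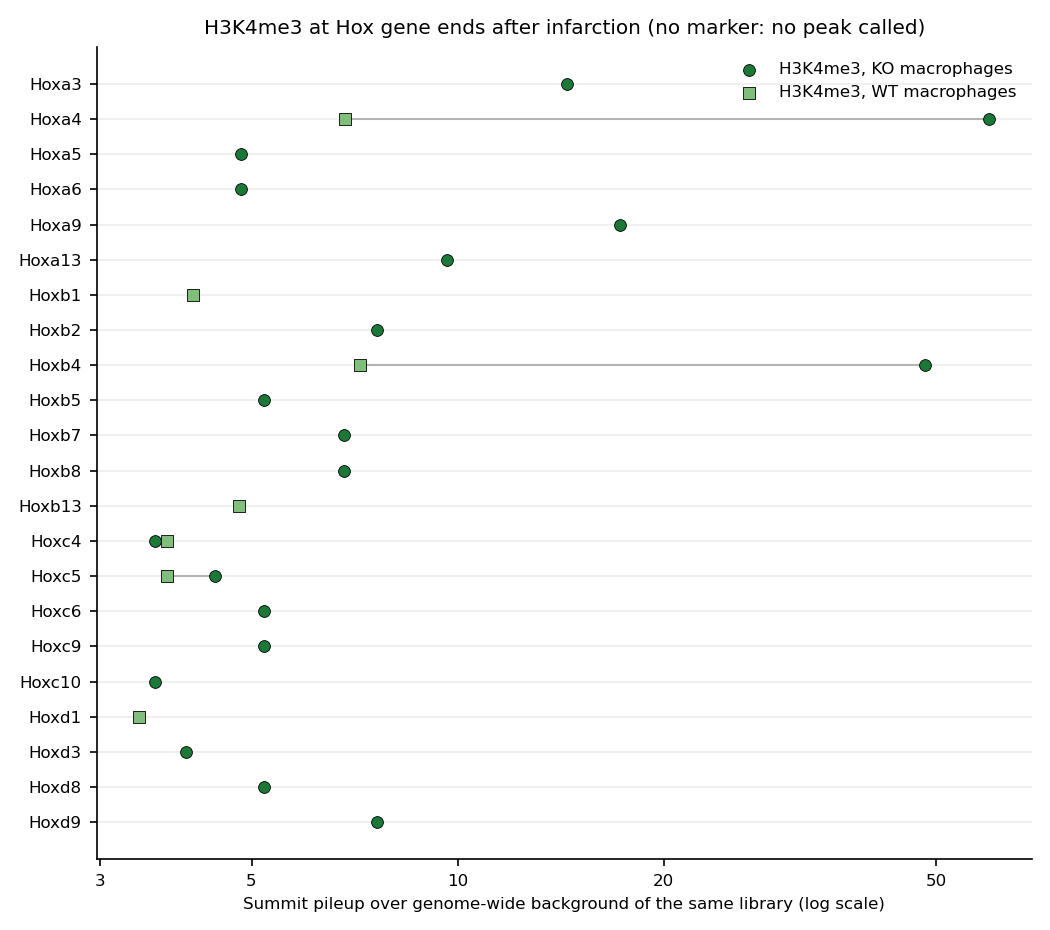
H3K4me3 at 22 of the 23 Hox genes with a gene-end peak in KO or WT macrophages, as the summit pileup of the strongest gene-end peak divided by the genome-wide background of the same library, on a log axis. Circles are KO, squares are WT, and a missing marker means that no peak was called. Hoxa4 and Hoxb4 lead in KO at 59.8 and 48.2, beside 6.85 and 7.19 in WT, and Hoxc4 has 3.61 in KO and 3.77 in WT.

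The promoters under these peaks show which start sites carried the mark. RefSeq gives promoters of GRCm38.p6, from 250 bases before to 50 after a start site, for 22 of the 39 genes, 24 promoters in all. The sequences below are printed 5′ to 3′ on the gene's strand with each CG dinucleotide in capitals. They are Hoxb4 (chr11:96318017-96318316, plus strand), covered over 300 bp in KO and 235 bp in WT, and Hoxa3 (chr6:52213018-52213317, minus strand), covered over 300 bp in KO and 0 in WT. They also include Hoxd9 (chr2:74697513-74697812, plus strand), covered over 208 bp in KO and 0 in WT, and Hoxd1 (chr2:74762730-74763029, plus strand), covered over 0 bp in KO and 300 in WT. Hoxd13 (chr2:74667975-74668274, plus strand) is a CG-rich promoter with no peak in any list.
Hoxb4: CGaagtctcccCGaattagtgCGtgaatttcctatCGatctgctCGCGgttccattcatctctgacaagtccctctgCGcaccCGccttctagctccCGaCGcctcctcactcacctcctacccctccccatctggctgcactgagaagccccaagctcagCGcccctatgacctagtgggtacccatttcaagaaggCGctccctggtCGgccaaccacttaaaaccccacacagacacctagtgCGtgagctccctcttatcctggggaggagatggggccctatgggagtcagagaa
Hoxa3: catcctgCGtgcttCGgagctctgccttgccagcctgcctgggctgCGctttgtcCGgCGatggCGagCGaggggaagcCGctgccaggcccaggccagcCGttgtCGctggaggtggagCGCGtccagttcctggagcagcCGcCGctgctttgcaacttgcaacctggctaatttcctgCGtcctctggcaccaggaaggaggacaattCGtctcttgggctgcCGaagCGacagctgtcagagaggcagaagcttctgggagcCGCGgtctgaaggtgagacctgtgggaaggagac
Hoxd9: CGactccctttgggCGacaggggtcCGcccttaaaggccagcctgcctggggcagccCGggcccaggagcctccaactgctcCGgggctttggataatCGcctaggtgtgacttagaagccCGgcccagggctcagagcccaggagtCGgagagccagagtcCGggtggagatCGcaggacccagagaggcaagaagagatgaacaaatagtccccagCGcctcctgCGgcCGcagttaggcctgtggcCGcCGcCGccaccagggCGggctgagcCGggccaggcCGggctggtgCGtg
Hoxd1: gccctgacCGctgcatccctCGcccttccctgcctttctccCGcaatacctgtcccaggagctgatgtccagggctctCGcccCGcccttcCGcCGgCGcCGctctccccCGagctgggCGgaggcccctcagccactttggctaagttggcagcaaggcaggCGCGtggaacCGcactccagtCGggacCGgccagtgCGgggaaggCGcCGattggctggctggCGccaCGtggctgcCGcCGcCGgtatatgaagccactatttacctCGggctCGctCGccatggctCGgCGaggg
Hoxd13: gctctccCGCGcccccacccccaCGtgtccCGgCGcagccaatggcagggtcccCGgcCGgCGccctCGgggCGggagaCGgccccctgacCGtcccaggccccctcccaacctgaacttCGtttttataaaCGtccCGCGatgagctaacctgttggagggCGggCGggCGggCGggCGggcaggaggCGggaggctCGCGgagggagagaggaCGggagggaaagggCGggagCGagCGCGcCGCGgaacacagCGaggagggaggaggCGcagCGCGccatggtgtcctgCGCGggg

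CG dinucleotides numbered 14 in the Hoxb4, 20 in the Hoxa3, 20 in the Hoxd9, 29 in the Hoxd1 and 37 in the Hoxd13 promoter. The Hox promoter with the most of them, Hoxa13 with 45, was covered over 198 bp by H3K4me3 in KO. The median over the 24 Hox promoters was 14.5, against 13 over the 21263 promoters of the table. The GC box GGGCGG, searched on both strands, was present in 10 of 24 Hox promoters and 46.2% of all. The homeodomain core TAATTA was in 2 of 24 and 4.53% of all, and the PBX-HOX composite TGATTNAT was in 2 of 24 and 2.75% of all, each searched on both strands. A match describes letters in the window and is not a bound site.

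NPM1 in infarct and sham macrophages was compared to ask where NPM1 sits after cardiac injury. A gene-end peak was called at 18 Hox genes in the infarct list, against 50.6% of all genes, and at 1 in the sham list, against 10.9% of all genes. Hox genes marked in infarct and not in sham numbered 17, beside 43.4% of all genes. Those marked in sham and not in infarct numbered 0, beside 3.75% of all genes, and Hoxb7 was marked in both, beside 7.14% of all genes. With either gene end counted, the Hox share was thus near that of all genes, and few of the peaks were strong. At known start sites, 6 of 22 Hox genes were marked in infarct, beside 49.6% of all genes with one. Hox genes with a −log10 q of 5 or more numbered 1 in infarct, beside 27.9% of all genes, and 0 in sham, beside 0.681% of all genes. The infarct background was 2.35 times the sham one. With the infarct pileups scaled down to the sham depth, 14 Hox genes and 47.3% of all genes still had a peak in the infarct list.

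Hoxa9 was the Hox gene with the strongest infarct NPM1 and had none in sham. The infarct peak was 821 bp wide at chr6:52221439-52222259, beyond the gene's 3′ end. It had 19 reads over 3.74, a fold of 4.22 and a −log10 q of 5.46. Hoxb13 followed with 16 reads, a fold of 4.01 and a −log10 q of 4.30 in infarct and no sham peak. Hoxb1 had 14 reads, a fold of 3.72 and a −log10 q of 3.33 in infarct and no sham peak. Hoxb7 had 9 reads, fold 2.48 and −log10 q 0.715 in infarct, against 7 reads, fold 3.50 and −log10 q 1.41 in sham, at peaks that do not overlap. The other 14 infarct-marked Hox genes had between 10 and 15 reads at the summit. Of the 18 infarct-marked genes, 4 had a peak whose q was above 0.05.

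NPM1 in IL-4-treated and untreated bone marrow-derived macrophages was compared to ask where NPM1 sits in alternatively activated cells. A gene-end peak was called at 14 Hox genes with IL-4, against 51.2% of all genes, and at 1 untreated, against 6.71% of all genes. All 14 lacked an untreated peak, beside 46.5% of all genes marked with IL-4 and not untreated, and Hoxa4 was marked untreated and not with IL-4, beside 1.98% of all genes. Hox genes with a −log10 q of 5 or more numbered 1 with IL-4, beside 29.4% of all genes, and 0 untreated, beside 0.397% of all genes. The IL-4 background was 3.19 times the untreated one, and scaling the IL-4 pileups to the untreated depth left 8 Hox genes and 43.4% of all genes marked. In the IL-4 list the marked share was 35.9% of Hox genes, beside 51.2% of all genes. Of the 14 IL-4-marked Hox genes, 3 had a peak whose q was above 0.05.

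Hoxa13 led the IL-4 list with 21 reads over 4.18, a fold of 4.25 and a −log10 q of 6.25 at chr6:52261705-52262508, beyond the edge of the cluster, and had no untreated peak. Hoxa9 followed with 18 reads, a fold of 3.45 and a −log10 q of 3.90 with IL-4, beyond its 3′ end, and no untreated peak. Hoxb1 had 17 reads, a fold of 3.47 and a −log10 q of 3.72 with IL-4 and no untreated peak. Hoxa4 had no peak with IL-4 and 7 reads, a fold of 3.46 and a −log10 q of 1.4 untreated. The strongest IL-4 peak inside a cluster lay outside the genes, between Hoxc13 and Hoxc12 at chr15:102935117-102935428, with 23 reads, a fold of 4.63 and a −log10 q of 7.65. Hoxa7, a gene of blood progenitors and the axial skeleton, was marked in the IL-4 list and in no other of the 6, by 17 reads and a fold of 3.23. The IL-4 peak covered 232 bp of the Hoxa7 promoter (chr6:52218524-52218823, minus strand), shown with CG in capitals because NPM1 overlaps it without H3K4me3 in the cardiac lists.
Hoxa7: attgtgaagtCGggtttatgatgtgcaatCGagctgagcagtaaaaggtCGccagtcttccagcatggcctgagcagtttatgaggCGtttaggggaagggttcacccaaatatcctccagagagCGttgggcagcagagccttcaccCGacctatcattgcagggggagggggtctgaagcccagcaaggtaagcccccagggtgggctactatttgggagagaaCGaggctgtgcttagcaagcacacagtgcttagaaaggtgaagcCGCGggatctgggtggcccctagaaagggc

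NPM1 was called at 11 Hox genes in both the infarct and the IL-4 list, at 7 in infarct without IL-4 and at 3, namely Hoxa7, Hoxc9 and Hoxd12, in IL-4 without infarct. Among the 11 were Hoxa6, Hoxa9, Hoxa10, Hoxa11, Hoxa13, Hoxb1, Hoxc4, Hoxc5, Hoxc8 and Hoxc12. The 11 made up 61.1% of the infarct-marked and 78.6% of the IL-4-marked Hox genes, beside 86.0% of the infarct-marked genes of the genome. In the genome, 11072 genes (50.6%) were marked in infarct, 11214 (51.2%) with IL-4 and 9518 (43.5%) in both lists. Hoxa4, Hoxb4 and Hoxb13 were among the 7 in infarct without IL-4.

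HOXA and HOXB, the clusters used in blood cells, were set against HOXC and HOXD within each library, where depth is shared. For infarct NPM1, 14 of 21 HOXA and HOXB genes were marked, against 4 of 18 HOXC and HOXD genes, with 9 of 11 in HOXA, 5 of 10 in HOXB, 4 of 9 in HOXC and 0 of 9 in HOXD. For sham NPM1 the counts were 1 of 21 and 0 of 18, and the same held for untreated NPM1. For IL-4 NPM1 they were 8 of 21 and 6 of 18, with 7 in HOXA, 1 in HOXB, 5 in HOXC and 1 in HOXD. For H3K4me3 they were 12 of 21 and 8 of 18 in KO, and 5 of 21 and 3 of 18 in WT. With −log10 q of 5 or more in KO they were 9 of 21 and 1 of 18, and no HOXC gene reached that threshold. At the same threshold the infarct NPM1 counts were 1 of 21 and 0 of 18. The genes of a cluster share chromatin and peaks, so these counts carry no error estimate.

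Covered length gave the same order for infarct NPM1 and H3K4me3. HOXA and HOXB were covered over 2.98% of their length for infarct NPM1, against 0.727% of HOXC and HOXD. For H3K4me3 the shares were 6.47% against 3.26% in KO and 2.15% against 0.501% in WT. For IL-4 NPM1 they were 1.48% against 1.35%, with 2.13% of HOXA alone and 2.04% of HOXC alone. Sham NPM1 covered 0.316% of HOXA and HOXB against 0.399% of HOXC and HOXD, and untreated NPM1 0.0716% against 0.205%, from 8 and 3 peaks in all.

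**Figure D3:**
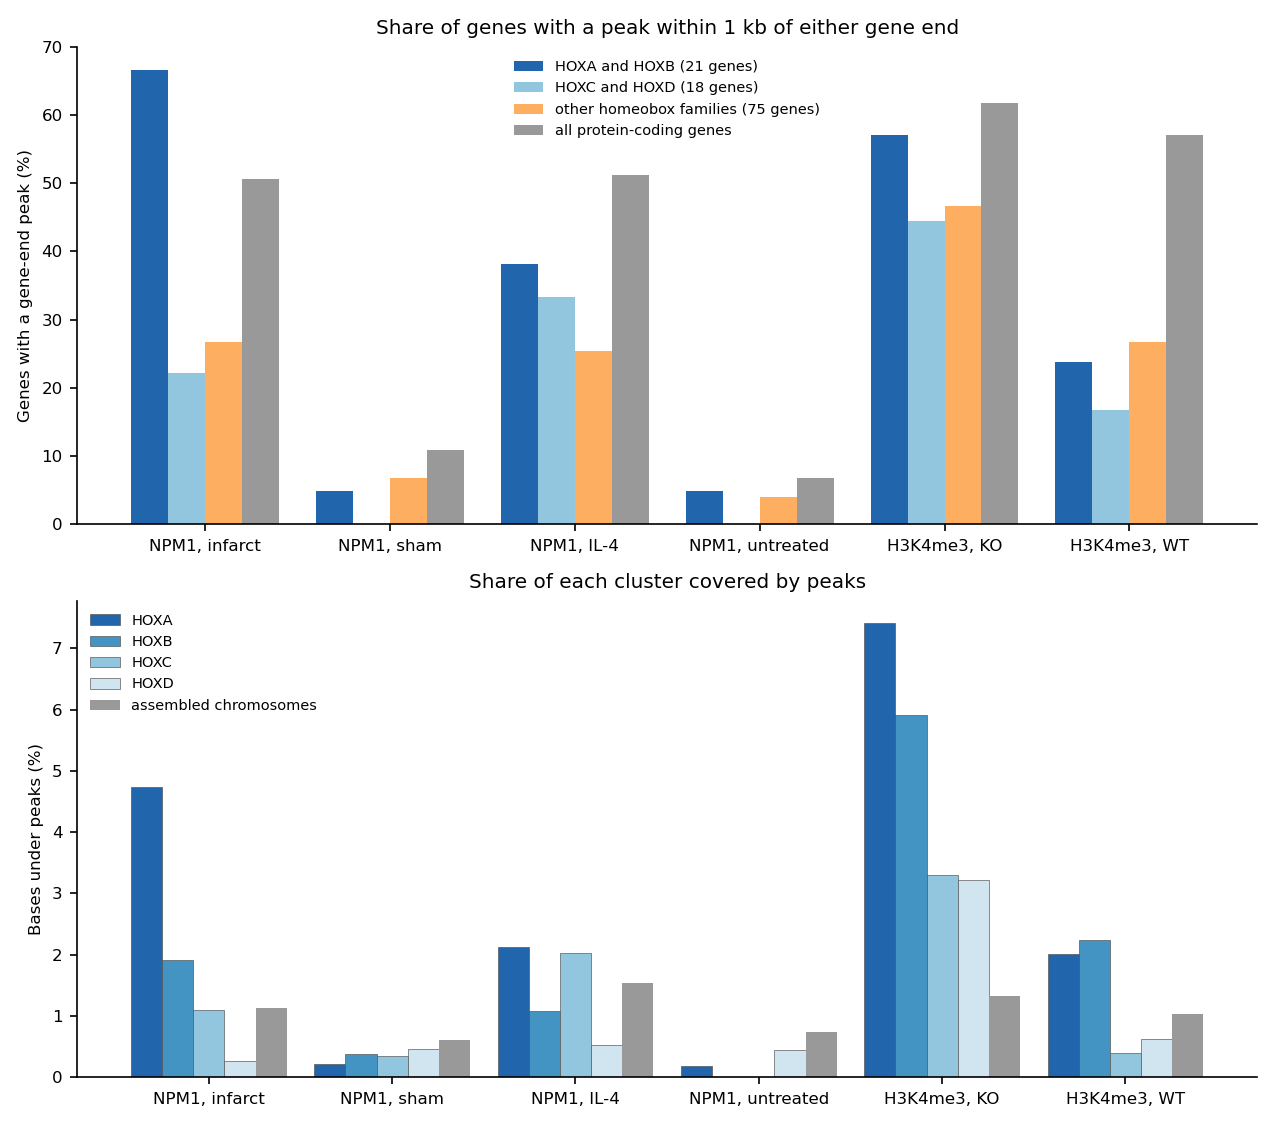
Top, the share of genes with a gene-end peak in each library, in percent, for HOXA with HOXB, HOXC with HOXD, the other homeobox families and all protein-coding genes. Bottom, the share of each cluster's bases under peaks beside that of the assembled chromosomes. In infarct NPM1, 66.7% of HOXA and HOXB genes are marked, against 22.2% of HOXC and HOXD genes and 50.6% of all genes, and KO H3K4me3 covers 7.41% of HOXA.

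In the infarct, IL-4, KO and WT lists nearly all peaks at Hox genes had folds below the median of marked genes. The highest Hox fold was 4.22 in infarct and 4.25 in IL-4 NPM1, beside all-gene medians of 4.17 and 3.96, and 1 Hox gene in each list was at or above the median. In H3K4me3 2 of 20 KO-marked Hox genes, Hoxa4 and Hoxa9, and 1 of 8 WT-marked, Hoxa4, were at or above the all-gene median fold. The sham and untreated peaks had folds of 3.50 and 3.46 from 7 reads each, beside medians of 3.50 and 3.46. Summit pileups at Hox gene ends ran from 9 to 19 reads in infarct and 7 in sham NPM1, from 12 to 21 with IL-4 and 7 untreated, and from 9 to 149 in KO and 10 to 21 in WT H3K4me3.

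**Figure D4:**
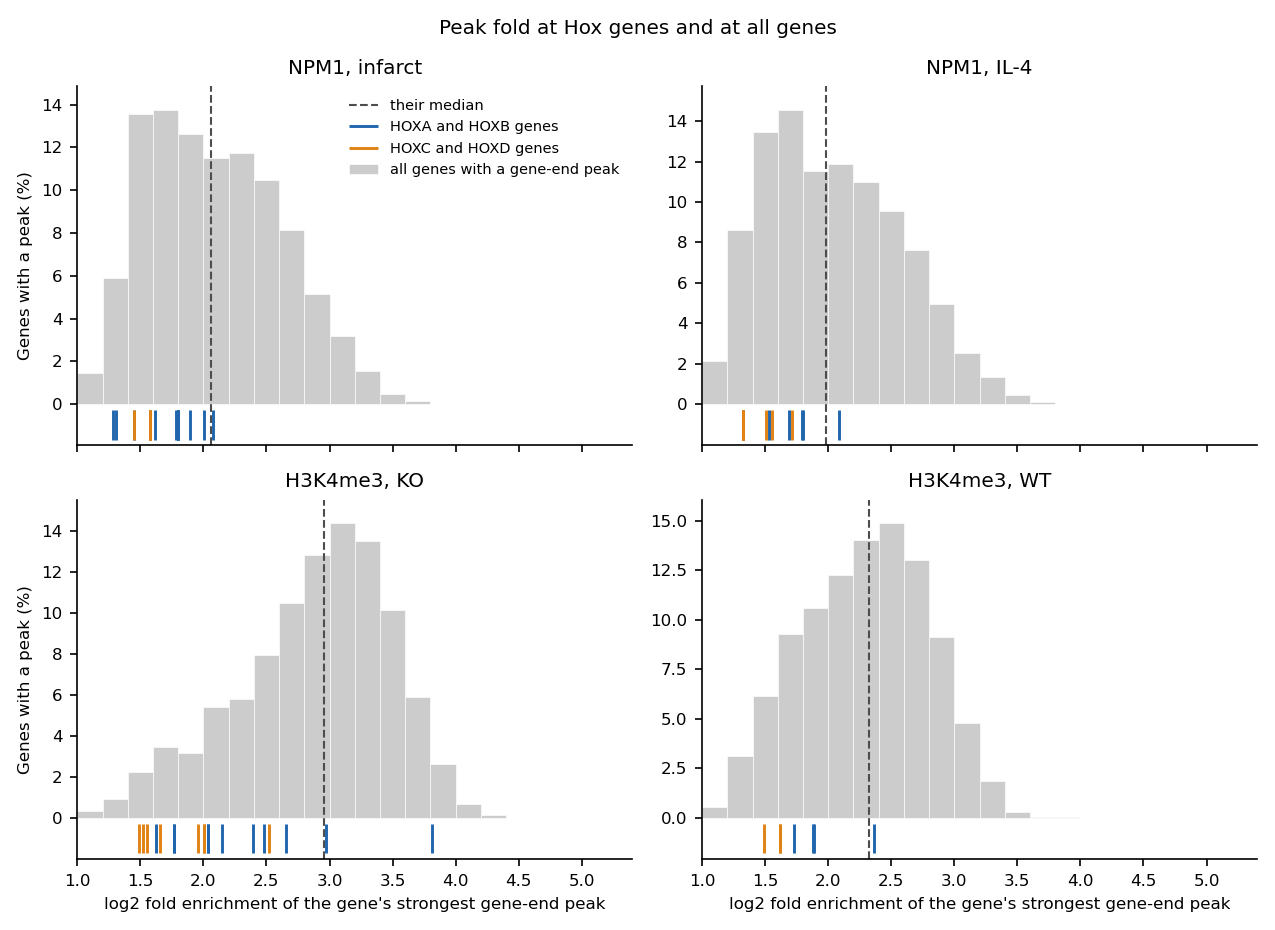
Distribution of the log2 fold of the strongest gene-end peak over all genes with a peak (grey, percent of genes), with a tick below it for each Hox gene but 1 left out, blue for HOXA and HOXB and orange for HOXC and HOXD, and a dashed line at the all-gene median. Nearly all ticks lie left of the line, the Hoxa4 tick at a fold of 14.1 in KO macrophages being the farthest to the right.

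NPM1 peaks and H3K4me3 peaks of these lists shared some stretches of the clusters. Merging overlapping peaks of the 6 lists gave 88 regions, of which 26 were in 2 or more lists, 11 in 3 or more and 3 in 4. NPM1 of any list and H3K4me3 of any list stood together in 20 regions. These include pairs from different cells, treatments or genotypes, and peaks merged into 1 region need not all overlap each other. The same count over the genome was not made. The regions in 4 lists held infarct and IL-4 NPM1 with KO and WT H3K4me3, and 1 of them lay at the end of Hoxc5 towards Hoxc4 (chr15:103016788-103017303). The Hoxa9 region at chr6:52221347-52222508 held infarct and IL-4 NPM1 and KO H3K4me3, and the Hoxa4 and Hoxb4 regions held infarct NPM1 with H3K4me3 of both genotypes. By gene, 12 of the 18 infarct NPM1 genes had H3K4me3 in KO and 7 had it in WT, beside 91.3% and 89.5% of all infarct NPM1 genes. The infarct NPM1 genes with no H3K4me3 gene-end peak in either genotype were Hoxa10, Hoxa11, Hoxc8 and Hoxc12, 4 of 18, beside 5.9% of all infarct NPM1 genes. Hoxa10 did have a KO H3K4me3 peak of 9 reads and fold 2.87 near a known start site inside the gene. Conversely Hoxb2, Hoxb5, Hoxc6, Hoxc10, Hoxd1, Hoxd3, Hoxd8 and Hoxd9 had a gene-end peak of H3K4me3 in KO or WT and no gene-end peak of NPM1 in any of the 4 NPM1 lists. The share of all genes in that class was not counted. Away from its ends, Hoxd3 held NPM1 peaks in all 4 lists, Hoxc10 in infarct and sham, and Hoxc6 with IL-4. Of the 15 Hox genes with H3K4me3 in KO only, 7 had infarct NPM1 in WT macrophages (46.7%), beside 28.1% of the 1832 such genes in the genome. The KO-only share was near that of all Hox genes, of which 46.2% had infarct NPM1, beside 50.6% of all genes.

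The clusters also hold microRNAs that share their chromatin, and the mature strands are shown from RefSeq (GRCm38.p6) with the seed, bases 2 to 8, in capitals. The miR-10 pair, which is known to target Hox transcripts, shares the seed ACCCUGU, and the miR-196 family, also known to target Hox transcripts, shares AGGUAGU.
mmu-miR-196b-5p: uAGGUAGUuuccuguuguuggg
mmu-miR-196a-5p: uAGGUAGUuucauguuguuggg
mmu-miR-10a-5p: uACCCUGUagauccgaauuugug
mmu-miR-10b-5p: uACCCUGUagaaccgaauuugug
mmu-miR-615-3p: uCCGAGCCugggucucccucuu
Mir196b, whose hairpin lies between Hoxa9 and Hoxa10 at chr6:52230081-52230165, was under an infarct NPM1 peak of 13 reads and fold 3.07 that was counted at Hoxa10, and its nearest KO H3K4me3 peak was 3910 bp away. Mir615, inside Hoxc5, was under a KO H3K4me3 peak of 11 reads and fold 2.91, and the mature miR-615-3p was 619 bp from the nearest WT peak. Mir10a lay 637 bp from the KO and 808 bp from the WT Hoxb4 peak. Mir10b in HOXD was 13359 bp from the nearest KO and 27287 bp from the nearest WT H3K4me3 peak. Neither Mir196a copy was under a peak in any list.

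The partners and regulators of Hox proteins are read here beside all genes, of which 50.6% had infarct and 51.2% IL-4 NPM1, and 61.8% KO and 57.1% WT H3K4me3. PBX, MEIS, PKNOX and TGIF cofactor genes had NPM1 at 9 of 10 in infarct and 0 in sham, and at 7 with IL-4 and 2 untreated. They had H3K4me3 at 10 of 10 in KO and 9 in WT. Pknox1, a MEIS-related cofactor, led with an infarct NPM1 fold of 11.3 and a −log10 q of 85.6, beside the highest Hox fold of 4.22 in that list. Activators of Hox genes, the MLL, DOT1L and CDX group, had NPM1 at 11 of 20 in infarct and 1 in sham, at 11 with IL-4 and 2 untreated, and H3K4me3 at 15 in KO and 14 in WT, which for NPM1 is near the share of all genes. Kmt2a itself had an NPM1 fold of 9.22 in infarct and 9.01 with IL-4. Polycomb genes had NPM1 at 26 of 31 in infarct and 5 in sham, at 25 with IL-4 and 1 untreated, and H3K4me3 at 31 in KO and 29 in WT.

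Several genes that flank the clusters had stronger peaks than the Hox genes beside them. Of 14 neighbours, 9 had NPM1 in infarct and 2 in sham, 8 with IL-4 and 0 untreated, and 10 had H3K4me3 in KO and 10 in WT. Over all genes the shares were 50.6% in infarct, 10.9% in sham, 51.2% with IL-4, 6.71% untreated, 61.8% in KO and 57.1% in WT. Skap2, the neighbour of HOXA and an adaptor protein gene of blood cells, had NPM1 folds of 8.41 in infarct and 8.5 with IL-4 and H3K4me3 folds of 7.37 in KO and 6.25 in WT. Snx11 near HOXB had NPM1 folds of 9.53 in infarct and 8.33 with IL-4. The Even-skipped gene Evx2, next to Hoxd13, had no gene-end peak in any list.

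Homeobox genes outside the clusters, which also pattern the embryo, served as a comparison, and a few of them (Evx1, Evx2 and the Cdx genes) also stand in the lists above. Of 75 genes of the Lhx, Nkx, Pax, Irx, Dlx and related families, 20 had NPM1 in infarct and 5 in sham, 19 with IL-4 and 3 untreated, and 35 had H3K4me3 in KO and 20 in WT. With −log10 q of 5 or more, 24 were marked in KO and 4 in WT. Of the 55 such genes without a WT H3K4me3 peak, 20 had one in KO (36.4%), beside 48.4% of Hox genes and 19.5% of all genes. KO-only H3K4me3 was thus called at homeobox genes outside the clusters as well. Infarct NPM1 was called at 66.7% of HOXA and HOXB genes and 22.2% of HOXC and HOXD genes, beside 26.7% of the other homeobox genes.

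There were 10 Hox genes without a gene-end peak in any of the 6 lists, namely Hoxa2, Hoxb3, Hoxb6, Hoxb9, Hoxc11, Hoxc13, Hoxd4, Hoxd10, Hoxd11 and Hoxd13. Those in HOXD made up 4 of the 10. The share of all genes without a peak in any of the 6 lists was not counted, so the 10 have no genome share beside them. Hoxb6 had a peak away from its ends in KO, WT and sham, and Hoxb3 had H3K4me3 peaks inside it as given above. NPM1 peaks also lay inside Hoxb3 in infarct and with IL-4. The strongest, at chr11:96314730-96315112 with IL-4, had 19 reads, a fold of 3.86 and a −log10 q of 4.94. The absence of a call means that none was called at the depth of that library.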

How the data were processed

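The submitters' processing notes name bcl2fastq 2.17, Bowtie2, MACS2 2.2.7.1, deepTools and mm10. No source used here states their settings or a control library. Each deposited list holds the peaks of 1 library, with a score, a fold enrichment at the summit, −log10 p and −log10 q values and the summit's position, all as the authors' peak caller wrote them. The score follows −log10 p and was not used. From fold and −log10 p the whole-number pileup and the local background were recomputed (tolerance 0.001). The most common background stands for depth. The scripts, checked on simulated data, ran in Python 3.11.15 with numpy 2.4.6, pandas 2.3.3, scipy 1.17.1 and matplotlib 3.10.9. Gene ends came from RefSeq (GRCm38.p6), which holds outermost extents without exons here. Named with values were Hox genes with −log10 q of 5 or more in an NPM1 list or in 1 list of a pair only, the 3 highest by −log10 q of each list, and up to 3 members of each other gene list; other Hox genes and the flanking genes were added after their values were seen. Members and gene lists were chosen with earlier results of these data known. The other 4 libraries were not analysed here. 1 Hox gene enters the counts but is not reported by name here.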

Additional observations from a re-analysis of the deposited data

How the results depend on the processing

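Of 156 values recomputed under another setting, 46 moved and 2 changed sign. The other 108 stayed near the value they were set against, for counts and shares within 1.5 times of it. That value was the reported one, except for counts in windows at known start sites, set against the same 22 genes at either end. These start-site counts of 22 genes were 6 with IL-4, 10 in KO and 3 in WT. The same 22 genes at either end gave 9, 11 and 4, and the reported counts were 14, 20 and 8 of 39. Of all genes with a known start site, 49.5% were marked there with IL-4, 62.8% in KO and 57.9% in WT. The share of HOXA and HOXB minus that of HOXC and HOXD was held only to its 95% counting interval. This interval is wide and treats the genes of a cluster as independent, which they are not. A value of this difference counted as staying near could therefore lie far from the reported one. Over all settings that difference ran from 4.76 to 50 points in infarct (44.4 as reported), from -7.14 to 31.7 with IL-4 (4.76), from 3.97 to 37.3 in KO (12.7) and from 4.76 to 21.4 in WT (7.14). Narrowing the windows at gene ends to 500 bp gave 11 marked Hox genes in infarct, 7 with IL-4 and 0 untreated, and differences of 10 genes for infarct minus sham, 7 for IL-4 minus untreated and 7 for KO minus WT. Windows of 2500 bp gave 4 marked genes in sham, and the share of HOXA and HOXB minus that of HOXC and HOXD became -1.59 points in sham and -7.14 points with IL-4, against 4.76 points in each with 1 kb. Summits inside the window left 0 marked genes untreated. Peaks with q of 0.05 or less covered 0.215% of the clusters in sham.

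Keeping only peaks of −log10 q 5 or above, 1 Hox gene stayed marked in infarct, 0 in sham, 1 with IL-4, 0 untreated, 10 in KO and 1 in WT, the differences were 1 for infarct minus sham and 1 for IL-4 minus untreated, and HOXA and HOXB exceeded HOXC and HOXD by 4.76 points in infarct. Covered shares were then 0.225% in infarct, 0% in sham, 0.0634% with IL-4, 0% untreated, 2.72% in KO and 0.206% in WT. With a fold of 4 or more the counts were 2 in infarct, 0 in sham, 1 with IL-4, 0 untreated, 12 in KO and 2 in WT, the differences 2 for infarct minus sham and 1 for IL-4 minus untreated, and the cluster difference 9.52 points in infarct. Covered shares were then 0.349% in infarct, 0.0929% in sham, 0.0634% with IL-4, 0.0478% untreated, 2.84% in KO and 0.246% in WT. Lists of equal length gave 6 marked genes with IL-4, a difference of 5 and a covered share of 0.786%. Fewer peaks enter under each of these filters.

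Both remaining settings were chosen after seeing the data. Windows at known start sites gave 6 marked genes of 22 in infarct and a difference of 6 from sham. Of all genes with a known start site, 49.6% were marked in infarct. The 6 were among 12 HOXA and HOXB genes, with 0 among 10 in HOXC and HOXD. Scaling to the untreated depth gave 8 marked genes with IL-4 and a difference of 7. No paired analysis was possible because each group has 1 library. The genome-wide background was lowest in the sham and untreated libraries, where Hox cluster peaks rest on as few as 6 reads. What part depth or enrichment has in the low counts of those lists was not tested. Neighbouring genes share peaks, long gene models such as Hoxa3 and Hoxb3 span their neighbours, and peaks carry no strand, so a peak cannot be given to a single gene or to an antisense transcript. A difference between libraries cannot be told apart from one between animals or preparations.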
